A study of Canis lupus familiaris with 18 samples.

Results

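The Notch pathway genes described here are the receptors NOTCH1, NOTCH2 and NOTCH3, the ligands JAG1, JAG2, DLL1 and DLL4, and the target genes HES1, HEY1 and HEY2. They were taken as every probe set that the platform annotation gives to exactly 1 of these 10 symbols. The rule found 9 probe sets of 7 genes, out of 15115 genes with a symbol of their own on the array. JAG1 had 3 probe sets and the 6 other genes had 1 each. No probe set in the annotation used here carried the symbol DLL1, HES1 or HEY2 alone, and these 3 genes were not analysed here. Among the members, target genes are therefore represented by HEY1 alone.

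Notch signalling passes between touching cells. A ligand on one cell (the Jagged or Delta-like proteins) binds a receptor on its neighbour, the receptor is cut by an ADAM protease and then by γ-secretase, and the freed intracellular part joins the DNA-binding protein RBPJ to switch on genes of the HES and HEY families, which encode transcriptional repressors. In mouse bone, Notch activity regulates how osteoblast precursors mature, and in vessels DLL4 is a ligand of endothelial cells that restrains sprouting.

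Expression was measured in 18 primary canine osteosarcomas, bone tumours whose cells deposit osteoid, from dogs with a normal (n = 9) or an increased (n = 9) serum concentration of alkaline phosphatase (ALP), an enzyme released mainly by bone and liver. Both groups consist of tumour tissue frozen at once after surgery, a biopsy or a necropsy. The labels give no breed, age, sex, treatment or tumour content, do not tie a tumour to a kind of procedure, and do not state that each tumour came from a different dog, so p-values measure the spread between these samples. No normal bone was included. Each tumour was run on 1 Affymetrix canine array. Array medians of the deposited log2 signals lay between 6.26 and 6.32. In increased ALP replicates 3 and 6 the bacterial BioB spike-in controls averaged 10.3 and 9.89, above the 8.33 to 9.21 of the other 16 arrays. The actin 3' to middle probe set difference, a measure of RNA integrity and labelling, correlated with the increased ALP group at r = 0.67. The mean level of 10 osteoblast genes lay between 9.11 and 12.1 in every tumour. In tumour pieces such as these, fewer cells of a type and less RNA per cell cannot be told apart.

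Levels below are log2(signal + 16), a scale that damps the noise of dim probe sets and understates their changes. Probe sets with a mean of at least 6.15, the 40th percentile of all probe sets, were tested together. The main JAG1 probe set, DLL4 and HEY1 passed this filter. The 6 other probe sets, those of NOTCH1, NOTCH2, NOTCH3 and JAG2 and the dimmer pair of JAG1, lay below it and were tested in a fit of all probe sets. On the same arrays, 64 control probe sets for reporter and vector sequences had a median level of 4.80, and 7 of them were at or above the level of NOTCH1, NOTCH3 or JAG2, 5 were at or above that of NOTCH2 and 2 at or above those of DLL4 and HEY1. No detection calls were used, so it is not known which member probe sets lay above their own background.

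JAG1, the Jagged ligand that is mutated in Alagille syndrome in humans, had the largest SD of the members at its main probe set. At its main probe set the levels with normal ALP were 6.43 at the lowest, 7.57 at the median and 9.34 at the highest tumour, and with increased ALP 6.68, 7.26 and 8.13. The groups overlapped, but 4 tumours with normal ALP (replicates 3, 4, 5 and 8) lay above every tumour with increased ALP. As a signal, JAG1 spanned 9.03-fold in the normal ALP group and 3.05-fold in the increased ALP group. Its SD of 0.76 over all tumours ranked above that of 91.0% of the probe sets tested. The SD was 0.95 with normal and 0.45 with increased ALP, and this difference in spread was not tested.

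Mean JAG1 levels were 7.83 ± 0.95 with normal and 7.35 ± 0.45 with increased ALP (SD, n = 9 each). Their difference of -0.48 ± 0.33 (SE, 95% interval -1.17 to 0.21) did not pass in limma (adjusted p = 0.854, unadjusted p = 0.160), and 1 of 9 tumours with increased ALP lay above the normal ALP mean. Without normal ALP replicate 8 the JAG1 difference was -0.29, and over all single arrays left out it lay between -0.66 and -0.29. JAG1 levels were lower where the actin difference was larger, at r = -0.58 (permutation p = 0.0115) and rho = -0.65 (permutation p = 0.00522), with adjusted p = 0.241 and 0.0797 over 21 relations. Without the tumours farthest from the median on that measure r was -0.51, and it was -0.75 within normal ALP and -0.49 within increased ALP (exact permutation p = 0.0146 and 0.176, n = 9 each). With the actin difference in the fit the JAG1 group difference turned to 0.17. The part of RNA quality in the JAG1 levels was not tested.

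The dimmer JAG1 probe sets varied less. The one ending in _s_at, a suffix for probes shared with other transcripts, had medians of 5.61 with normal and 5.47 with increased ALP and ran from 5.25 to 6.31 over all 18 tumours. The _at probe set had medians of 6.09 and 6.10 and ran from 5.78 to 6.45. Normal ALP replicate 8 was the highest tumour at all 3 probe sets, and replicate 7 the lowest at the main and the _s_at probe set. Over the 18 tumours the main probe set correlated with the _s_at one at r = 0.66 (permutation p = 0.0032, adjusted p = 0.0096 over 3 pairs) and rho = 0.59 (permutation p = 0.0115, adjusted p = 0.0344), with r = 0.44 after normal ALP replicates 3 and 8 were left out. With the _at probe set r was 0.26 (permutation p = 0.297) and rho 0.13 (permutation p = 0.614). Their group differences were -0.11 at the _s_at and -0.01 at the _at probe set (adjusted p = 0.868 and 0.986 in limma).

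DLL4, the Delta-like ligand of endothelial cells, had a narrower range. Levels with normal ALP were 6.23 at the lowest, 6.52 at the median and 7.23 at the highest tumour, and with increased ALP 6.24, 6.67 and 7.08. Normal ALP replicates 4 and 5 were the highest, followed by increased ALP replicates 1, 2 and 4, and the groups overlapped. The means were 6.65 ± 0.36 and 6.66 ± 0.26 (SD, n = 9 each). The difference was 0.02 ± 0.14 (SE, 95% interval -0.29 to 0.32, adjusted p = 0.993 in limma), so that the interval in terms of fold ran from 0.820 to 1.25.

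JAG2, the other Jagged ligand, was dim, with levels from 5.53 to 5.94 (median 5.72) in tumours with normal ALP and from 5.37 to 5.81 (median 5.70) in those with increased ALP. The means were 5.71 ± 0.14 and 5.68 ± 0.13 (SD, n = 9 each), and the difference of -0.03 ± 0.07 (SE) did not pass (adjusted p = 0.940 in limma). Increased ALP replicate 5 lay apart below the rest.

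**Figure D1:**
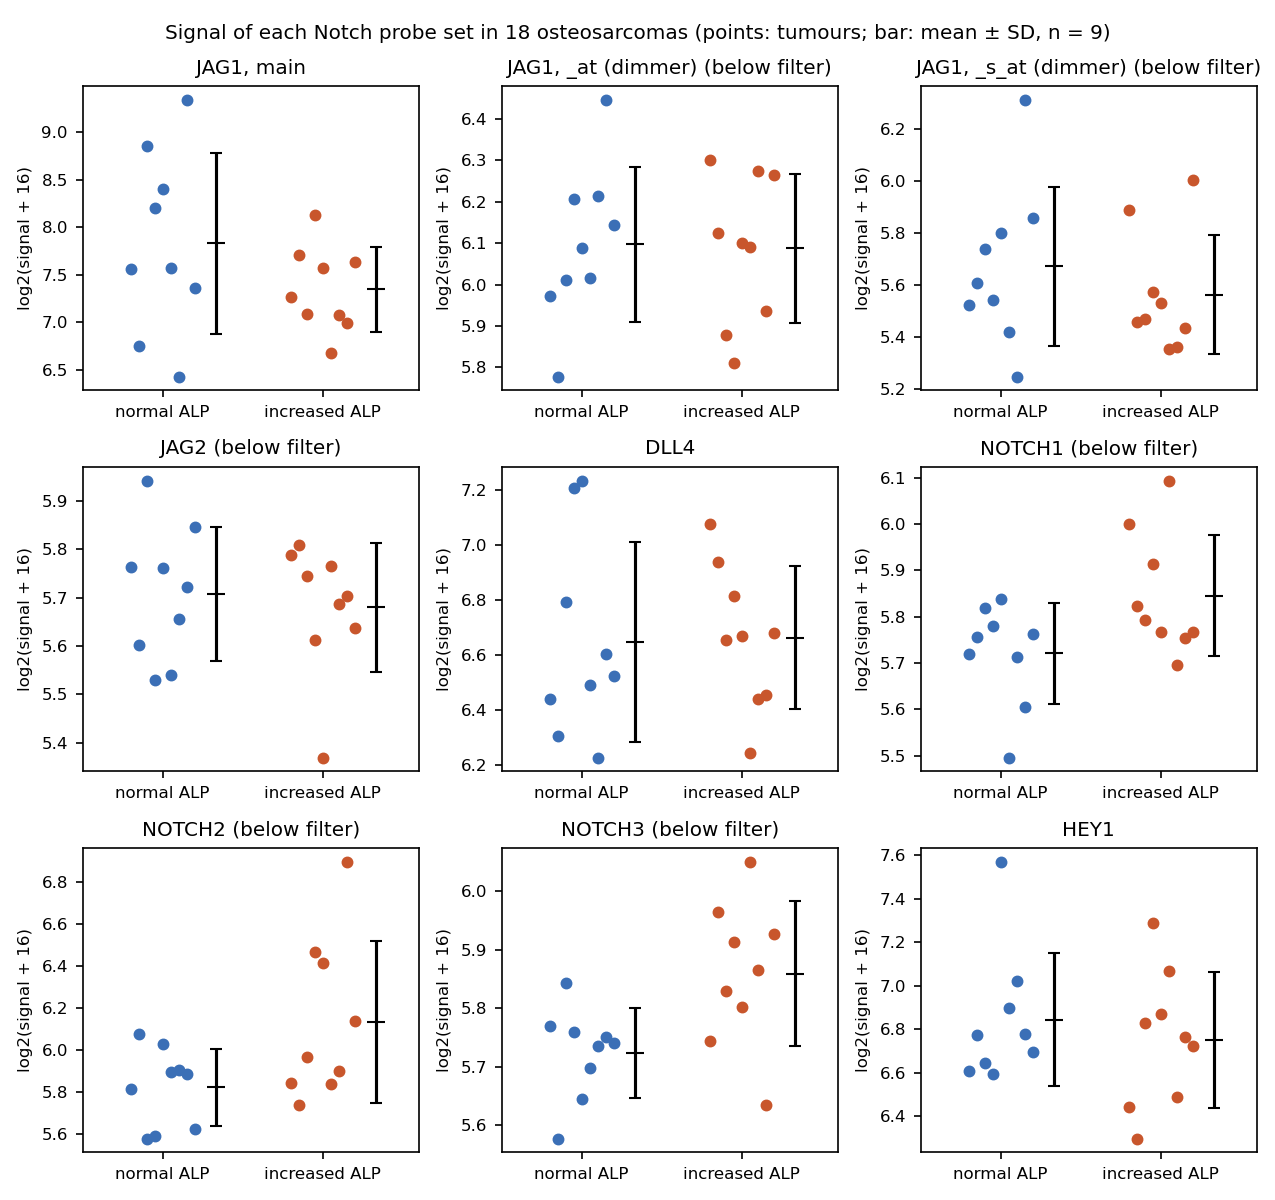
Levels as log2(signal + 16) on the y axis of the 9 Notch probe sets in each of 18 tumours, by serum ALP group on the x axis, with bars for the mean ± SD (n = 9) and a separate y scale in each panel. The main JAG1 probe set runs from 6.43 to 9.34, with 4 tumours with normal ALP above every tumour with increased ALP, and every panel shows overlapping groups.

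The 3 member receptors all stood slightly higher in tumours with increased ALP, at low signal and without passing the test. In the same fit without a filter, 24987 of 42860 probe sets were higher with increased ALP. Of the 25716 that passed the filter 13247 were higher, so the dimmer probe sets, the receptors among them, leaned higher more often. NOTCH2 had the widest range of the receptors, at 5.58 to 6.07 with a median of 5.88 in tumours with normal ALP and at 5.74 to 6.90 with a median of 5.97 in those with increased ALP. Increased ALP replicates 8, 4, 5 and 9 lay above every tumour with normal ALP, and the other tumours of the groups overlapped. NOTCH2 averaged 5.82 ± 0.18 and 6.13 ± 0.38 (SD, n = 9 each). The increased ALP mean was higher by 0.31 ± 0.14 (SE, 95% interval 0.03 to 0.59, unadjusted p = 0.0332, adjusted p = 0.797 in limma).

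NOTCH3, a receptor known for its role in vascular smooth muscle, ran from 5.58 to 5.84 with a median of 5.74 in tumours with normal ALP. With increased ALP it ran from 5.64 to 6.05 with a median of 5.87, and 5 of 9 tumours lay above every tumour with normal ALP. The difference was 0.13 ± 0.05 (SE, 95% interval 0.02 to 0.25, unadjusted p = 0.0207, adjusted p = 0.783 in limma). NOTCH1, a receptor of many tissues, ran from 5.50 to 5.84 with a median of 5.76 and from 5.70 to 6.09 with a median of 5.79, a difference of 0.12 ± 0.06 (SE, 95% interval -0.00074 to 0.25, unadjusted p = 0.0512, adjusted p = 0.809). For each receptor 8 of 9 tumours with increased ALP lay above the normal ALP mean. Above the normal ALP median lay 7 of 9 for NOTCH1, 6 of 9 for NOTCH2 and 8 of 9 for NOTCH3. How often other probe sets reached such counts was not computed. Exact two-sided permutation tests of these differences gave unadjusted p = 0.0431 for NOTCH1, 0.0387 for NOTCH2 and 0.0138 for NOTCH3.

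These receptor values were read against the whole array. In the fit without a filter, 0 of 42860 probe sets (0%) passed at an adjusted p under 0.05, while 6.11% had an unadjusted p under 0.05, made up of 3.01% higher and 3.1% lower with increased ALP. With the filter these shares were 1.91% higher and 4.23% lower, so low p-values among the dimmer probe sets leaned to higher levels, as in the receptors. The median difference of all probe sets in the fit without a filter was 0.02. NOTCH1 and NOTCH3 were both highest in increased ALP replicate 6, one of the arrays with high spike-in signal. Without both such arrays the differences were 0.10 for NOTCH1 and 0.11 for NOTCH3, and 0.38 for NOTCH2. With the actin difference in the fit they were 0.07, 0.12 and 0.41. NOTCH1 itself stood at r = 0.49 with the actin difference (permutation p = 0.0391, adjusted p = 0.329) and rho = 0.30 (permutation p = 0.228), and r was 0.35 without increased ALP replicates 3 and 6. The part of RNA quality in the receptor values was not tested.

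The probe sets of all 3 receptors and of HEY1 also end in _s_at, so signal from related transcripts cannot be told apart there. HEY1, the target gene and a transcriptional repressor that RBPJ switches on, differed little between the groups. Levels with normal ALP were 6.59 at the lowest, 6.77 at the median and 7.57 at the highest tumour, and with increased ALP 6.30, 6.76 and 7.29. Normal ALP replicate 5 stood above the other tumours, followed by increased ALP replicate 4, and the lowest were increased ALP replicates 2 and 1. The means were 6.84 ± 0.31 and 6.75 ± 0.31 (SD, n = 9 each), with a difference of -0.09 ± 0.14 (SE, 95% interval -0.39 to 0.21, adjusted p = 0.934 in limma). In terms of fold the interval ran from 0.764 to 1.15. On leaving out normal ALP replicate 5 the HEY1 difference was -0.00053. Leaving out increased ALP replicate 1, 2, 4 or 7 gave HEY1 differences of -0.05, -0.03, -0.16 and -0.06.

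Across all 9 probe sets, 0 passed at an adjusted p under 0.05. Among the 25716 probe sets tested with the filter, 0 (0%) passed and 6.14% had an unadjusted p under 0.05 (1.91% higher and 4.23% lower with increased ALP), against 0 of the 3 member probe sets in that fit. By main probe set 4 of the 7 genes were higher and 3 lower with increased ALP, with a median difference of 0.02.

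Other genes of the pathway were described from 6 lists of 63 genes, of which 54 had a probe set and 43 passed the filter. Of these, 25 were higher and 18 lower with increased ALP, with a median difference of 0.03, beside 5716 higher and 4992 lower with a median of 0.01 over all 10708 genes tested. None of the 43 passed in limma, and 3 had an unadjusted p under 0.05, while 4.86% of all genes tested did. Those were PSEN2, a presenilin of γ-secretase, at 0.40 ± 0.17 (SE, adjusted p = 0.776), POGLUT1, which adds glucose to the receptor's extracellular repeats, at -0.45 ± 0.17 (SE, adjusted p = 0.723), and the co-repressor CTBP1 at -0.23 ± 0.10 (SE, adjusted p = 0.752). PSEN2 lay at 8.70 ± 0.23 with normal and 9.09 ± 0.47 with increased ALP, and POGLUT1 at 8.65 ± 0.36 and 8.20 ± 0.37 (SD, n = 9 each). For POGLUT1 and CTBP1, 0 of 9 tumours with increased ALP exceeded the normal ALP mean, and for PSEN2 8 of 9 did. With the actin difference in the fit these differences were 0.22, -0.22 and -0.08 for PSEN2, POGLUT1 and CTBP1.

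Among the 7 cleavage genes tested, 3 were higher and 4 lower. PSENEN, another γ-secretase subunit, stood at 0.10 ± 0.11 (SE) and the convertase FURIN, which cuts the receptor on its way to the surface, at -0.10 ± 0.07. Of 4 glycosyltransferases 1 was higher, the fringe gene RFNG at 0.28 ± 0.17, and its relative MFNG stood at -0.10 ± 0.14. Of 10 genes of endocytosis and ubiquitination 6 were higher, with MIB1 and MIB2, ligases that act on the ligands, at 0.18 ± 0.18 and 0.12 ± 0.09 and DTX3L at -0.42 ± 0.26. The values covered both directions in each of these lists.

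Of 14 nuclear genes 8 were higher, with RBPJ at 0.30 ± 0.19 (SE) and the acetyltransferase KAT2B at -0.42 ± 0.23. Of 6 further ligands or receptors, the 3 that passed the filter were all higher, NOTCH4 at 0.09 ± 0.07, DLL3 at 0.04 ± 0.07 and CNTN1 at 0.15 ± 0.17. In the fit without a filter the 6 split into 3 higher and 3 lower, with a median difference of -0.02. Of 5 other HES and HEY genes and targets tested 4 were higher, with HES7 at 0.09 ± 0.07, HEYL at 0.05 ± 0.08 and HES6 at -0.03 ± 0.10. For these 6 lists the adjusted p of every gene named was at least 0.723 in limma.

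**Figure D2:**
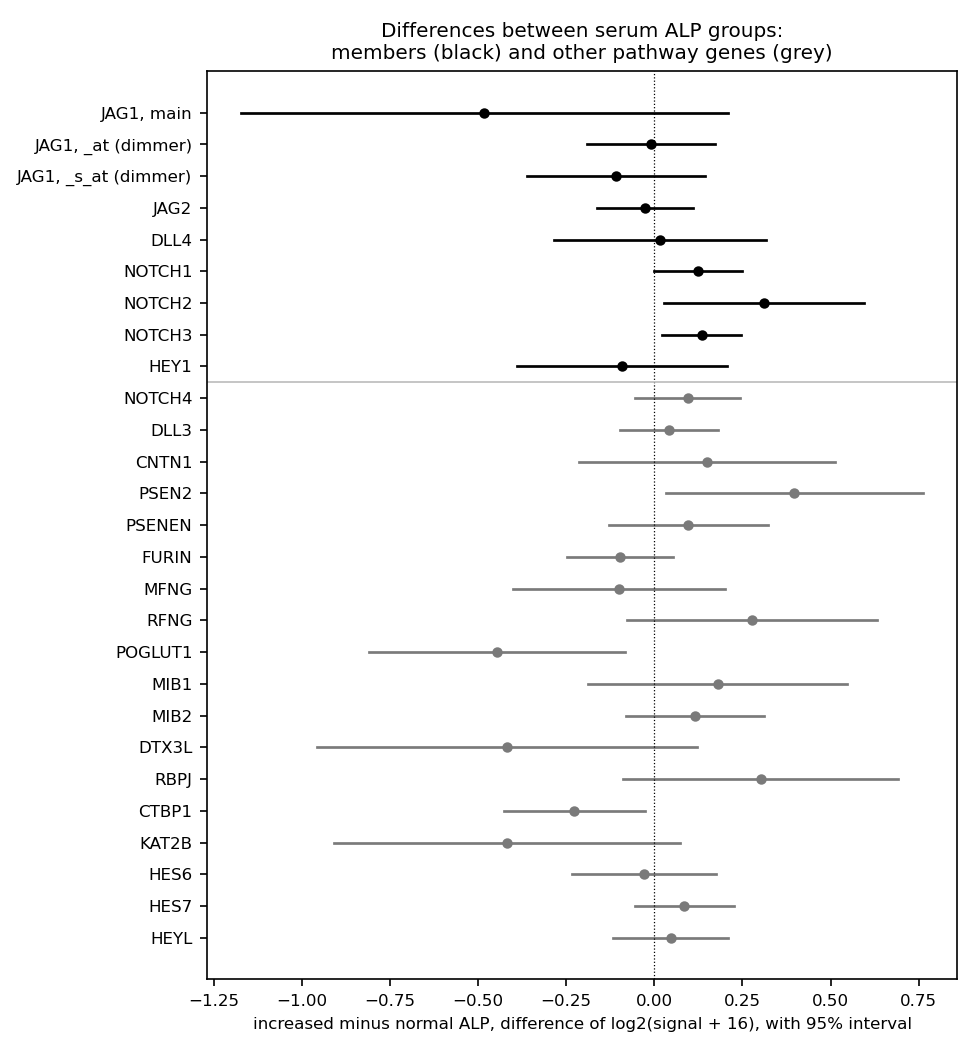
Difference between serum ALP groups (increased minus normal, log2(signal + 16), x axis) with its 95% interval for the 9 Notch probe sets in black and 18 other pathway genes in grey, the 3 of smallest p in each list. NOTCH2, NOTCH3, PSEN2, POGLUT1 and CTBP1 have intervals that leave out 0 before adjustment, and 0 of the genes passed after it.

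The members were next compared with each other across the 18 tumours. Of 21 pairs of genes, each by its main probe set, 13 had a positive and 8 a negative Pearson r, with a median of 0.01, and the ligands, receptors and HEY1 did not rise and fall as one group. JAG1 and DLL4 formed the closest pair. Their rank correlation passed over the 21 pairs (rho = 0.75, permutation p = 0.000660, adjusted p = 0.0139), while Pearson's r did not (r = 0.58, permutation p = 0.0114, adjusted p = 0.239). Both ligands were low in normal ALP replicates 2 and 7 and increased ALP replicate 6, and both were high in normal ALP replicates 4 and 5. Normal ALP replicate 8 had the highest JAG1 level, 9.34, beside a DLL4 level of 6.60, and increased ALP replicate 1 had a DLL4 level of 7.08 beside a JAG1 level of 7.26. Without the former rho was 0.83 for JAG1 with DLL4, and without the latter it was also 0.83.

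Without normal ALP replicates 3 and 8, the tumours farthest from the JAG1 median, r was 0.81. Within the groups r was 0.63 for normal ALP and 0.65 for increased ALP (exact permutation p = 0.0744 and 0.0563, n = 9 each). Without normal ALP replicate 8 alone Pearson's r passed, at 0.74 (adjusted p = 0.0172). The rank correlation lost its call without normal ALP replicate 7 (rho = 0.70, adjusted p = 0.0515) and with the actin difference removed from both genes (rho = 0.67, adjusted p = 0.0599). DLL4 itself stood at r = -0.25 with the actin difference over the 18 tumours (permutation p = 0.309, adjusted p = 0.639). This r was -0.76 within normal and -0.11 within increased ALP (exact permutation p = 0.00748 and 0.773, n = 9 each). The part of RNA quality in this pair was not tested. Another pair passed by rank when arrays were left out, DLL4 with NOTCH1 without increased ALP replicate 6 (rho = 0.81, adjusted p = 0.00252) and JAG2 with NOTCH2 without normal ALP replicate 4 (rho = -0.78, adjusted p = 0.00819). Of the other JAG1 probe sets, the _s_at one stood at rho = 0.56 with DLL4 (r = 0.36, permutation p = 0.0177 and 0.146) and the _at one at rho = 0.12 (r = 0.18, permutation p = 0.632 and 0.463). Among 10707 other genes, 1.06% had a higher r with DLL4 than JAG1 did, and 1.79% had a higher r with JAG1 than DLL4 did.

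HEY1 followed neither ligand. Its r was 0.08 with JAG1 and 0.01 with DLL4 (permutation p = 0.764 and 0.976), and rho was -0.06 and -0.18 (permutation p = 0.806 and 0.461). With NOTCH2 it stood at r = 0.35 (permutation p = 0.154, adjusted p = 0.807) and rho = 0.53 (permutation p = 0.0275, adjusted p = 0.144). NOTCH1 and NOTCH3 stood at r = 0.47 (permutation p = 0.0484, adjusted p = 0.508) and rho = 0.44 (permutation p = 0.0716), but r was 0.15 without increased ALP replicate 6 and normal ALP replicate 6, and within the groups it was 0.04 for normal ALP and 0.40 for increased ALP (exact permutation p = 0.914 and 0.290, n = 9 each). JAG2 and NOTCH2 stood at r = -0.43 (permutation p = 0.0760) and rho = -0.56 (permutation p = 0.0163, adjusted p = 0.131), and r was -0.19 without the tumours farthest from the JAG2 median. DLL4 and NOTCH1 stood at r = 0.24 (permutation p = 0.335) and rho = 0.56 (permutation p = 0.0187, adjusted p = 0.131).

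**Figure D3:**
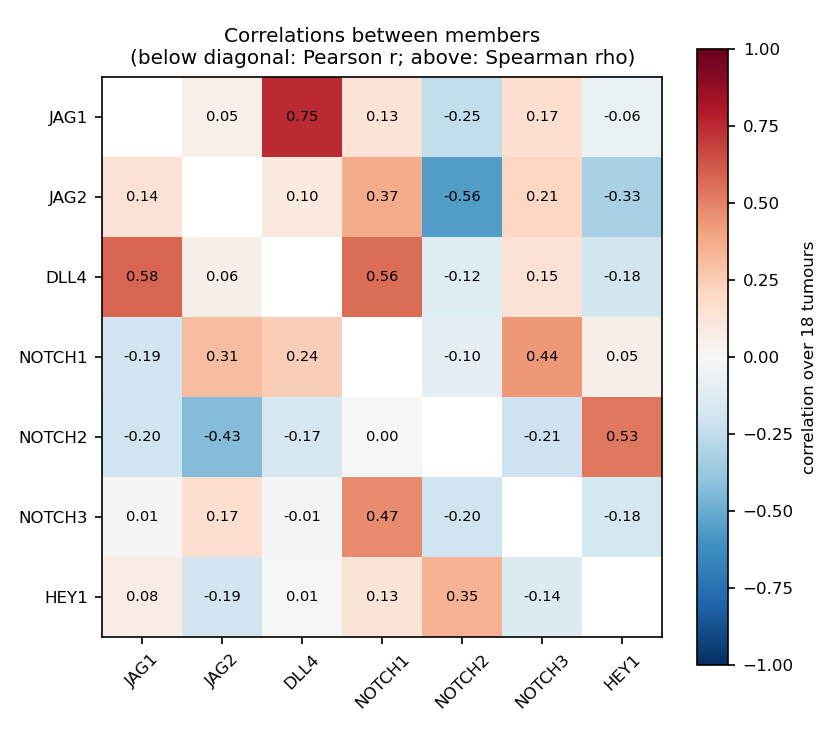
Correlation over 18 tumours between the main probe sets of the 7 Notch genes, with Pearson r below and Spearman rho above the diagonal. JAG1 and DLL4 show the strongest relation, r = 0.58 and rho = 0.75, and HEY1 is near 0 with both.

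Marker genes of 10 cell types or states were then set beside the members. DLL4 had its highest correlation with the endothelial list. Of 15 endothelial genes, 13 had a positive r with DLL4, with a median of 0.55, beside a median of -0.02 over all genes tested. The transcription factor ERG (r = 0.72), the adhesion molecule ESAM (0.71), EMCN (0.70) and CD34 (0.66) were the closest, while ROBO4 (-0.33) and the cadherin CDH5 (-0.47) went the other way at their main probe sets. The mean level of the list gave r = 0.60 with DLL4 (permutation p = 0.00884) and rho = 0.49 (permutation p = 0.0432). It did not pass over the 70 relations between members and lists (adjusted p = 0.186 and 0.159), of which 0 passed by either measure. An unadjusted permutation p under 0.05 was found for 12 by Pearson and 20 by Spearman. Without normal ALP replicates 4 and 5 the r of DLL4 was 0.70, and it was 0.63 within normal and 0.60 within increased ALP.

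JAG1 stood at r = 0.35 with the endothelial list and at 0.26 with the mural list of smooth muscle and pericyte genes. With the endothelial level removed from both ligands, the correlation of JAG1 with DLL4 was 0.49 by Pearson and 0.48 by Spearman, given as a description. NOTCH1 and NOTCH3 also had positive values with the endothelial list, at r = 0.48 (permutation p = 0.0408) and rho = 0.54 (permutation p = 0.0215) for NOTCH1 and r = 0.52 (permutation p = 0.0274) and rho = 0.53 (permutation p = 0.0244) for NOTCH3. All 15 endothelial genes had a positive r with each of them. Within normal and increased ALP the r of NOTCH1 was 0.44 and 0.43 (exact permutation p = 0.239 and 0.246, n = 9 each). For NOTCH3 it was 0.70 and 0.33 (exact permutation p = 0.0337 and 0.386). Over the 18 tumours the adjusted p by Pearson with the endothelial list was 0.253 for NOTCH1 and 0.213 for NOTCH3. That r was 0.53 and 0.51 without the tumours farthest from each gene's median. With the mural list NOTCH3 stood at rho = 0.60 (permutation p = 0.00879, adjusted p = 0.0767) and r = 0.47 (permutation p = 0.0507, adjusted p = 0.253). All 9 mural genes had a positive r with NOTCH3. The mean level of the endothelial list lay between 7.64 and 9.76 with normal and between 8.06 and 9.77 with increased ALP, with a difference of 0.31, and its part in the receptor values was not tested.

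**Figure D4:**
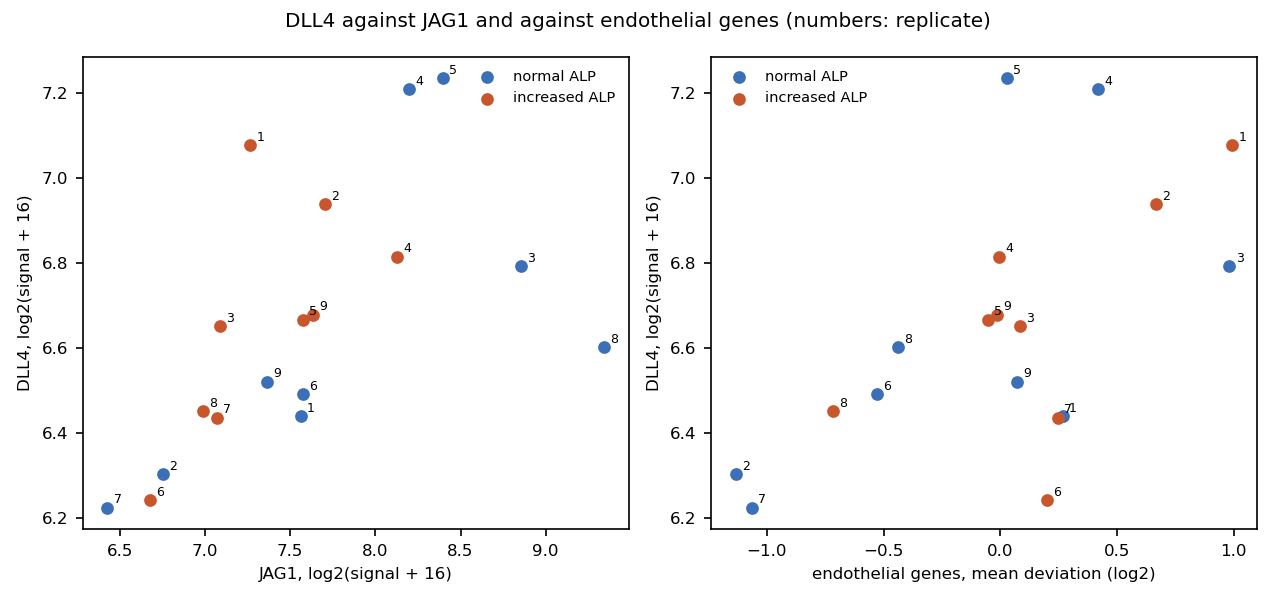
DLL4 level (y axis, log2(signal + 16)) against the JAG1 level on the left and the mean deviation of 15 endothelial genes (log2) on the right, with 1 point for each of 18 tumours and the replicate number beside it. DLL4 is higher at higher JAG1 (rho = 0.75), with normal ALP replicate 8 and increased ALP replicate 1 among the tumours off that trend, and at higher endothelial levels (r = 0.60).

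HEY1 and NOTCH2 had negative correlations with the fibroblast and mural lists and positive ones with the osteoblast list, though 0 of these relations passed. HEY1 and NOTCH2 differed in the sign of r on other lists, at -0.27 and 0.34 with T and NK cell genes (permutation p = 0.277 and 0.159). With cartilage genes r was 0.07 and -0.31 (permutation p = 0.792 and 0.214). For NOTCH2 with T and NK cell genes rho was 0.001, and r was 0.02 without increased ALP replicates 4 and 8. For HEY1 with cartilage genes r was 0.49 without normal ALP replicate 5 and increased ALP replicate 4. With the 11 fibroblast genes HEY1 stood at r = -0.61 (permutation p = 0.00562) and rho = -0.63 (permutation p = 0.00619), and NOTCH2 at r = -0.60 (permutation p = 0.00648) and rho = -0.71 (permutation p = 0.00136). Without the tumours farthest from their medians, r was -0.56 for HEY1 and -0.58 for NOTCH2. The adjusted p was 0.186 by Pearson and 0.0767 by Spearman for both genes. Of the 11 fibroblast genes, 1 had a positive r with HEY1 and 1 with NOTCH2. With the endothelial list rho was -0.61 for HEY1 (r = -0.39, permutation p = 0.00751 and 0.108) and -0.69 for NOTCH2 (r = -0.47, permutation p = 0.00232 and 0.0506), and 0 of 15 endothelial genes had a positive r with either. All 13 cell division genes had a positive r with both, and the list stood at rho = 0.60 with HEY1 (r = 0.44, permutation p = 0.0107 and 0.0703) and 0.66 with NOTCH2 (r = 0.47, permutation p = 0.00358 and 0.0595).

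With the osteoblast list r was 0.52 for HEY1 (rho = 0.51, permutation p = 0.0245 and 0.0338) and 0.57 for NOTCH2 (rho = 0.64, permutation p = 0.0109 and 0.00515). Without the tumours farthest from the HEY1 and NOTCH2 medians r was 0.45 and 0.42. Within increased ALP r was 0.70 and 0.82 (exact permutation p = 0.0370 and 0.00801, n = 9). Within normal ALP it was 0.31 and 0.16 (exact permutation p = 0.437 and 0.668, n = 9). HEY1 also stood at r = 0.56 with the osteoclast list (rho = 0.55, permutation p = 0.0152 and 0.0193). With the mural list r was -0.48 for HEY1 (rho = -0.58, permutation p = 0.0414 and 0.0131) and -0.54 for NOTCH2 (rho = -0.62, permutation p = 0.0186 and 0.00820). JAG2 stood with cell division genes at r = -0.57 (permutation p = 0.0167) and rho = -0.58 (permutation p = 0.0131), and r was -0.33 without normal ALP replicate 3 and increased ALP replicate 5. JAG2 also stood at r = -0.48 with the osteoblast list (rho = -0.53, permutation p = 0.0452 and 0.0269), and r was -0.30 without the same tumours. With the endothelial list its rho was 0.59 (r = 0.45, permutation p = 0.0114 and 0.0583). JAG2 was also higher where the BioB controls were higher, at rho = 0.62 (permutation p = 0.00759, adjusted p = 0.0797) and r = 0.40 (permutation p = 0.101, adjusted p = 0.329). Without increased ALP replicates 3 and 6 that r was 0.59. The part of array quality in the JAG2 values was not tested.

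**Figure D5:**
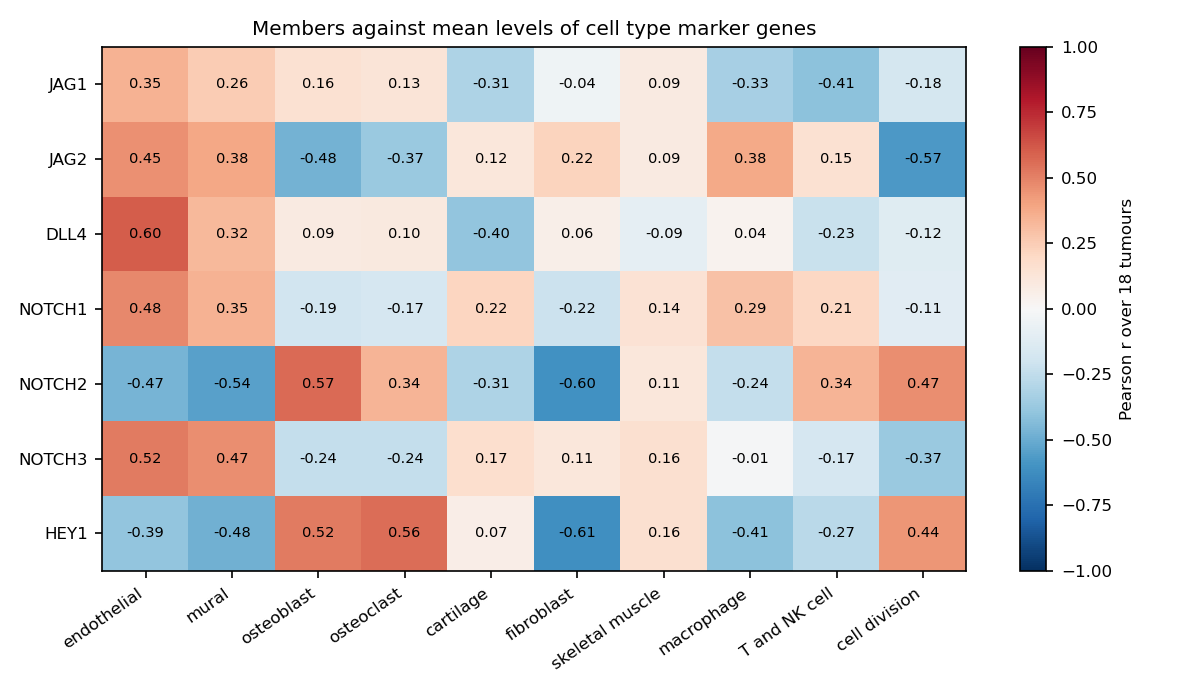
Pearson r over 18 tumours between each Notch gene (rows) and the mean level of marker genes of 10 cell types or states (columns). DLL4 is highest with endothelial genes (0.60), while HEY1 and NOTCH2 are lowest with fibroblast genes (-0.61 and -0.60) and positive with osteoblast genes (0.52 and 0.57).

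The genes most like each member that passed the filter were picked by Pearson's r among 10707 genes, and their values are given as a description. Closest to DLL4 were MYCT1 (r = 0.80, rho = 0.78), RASGRP3, which activates Ras-family proteins (r = 0.77, rho = 0.78), and the zinc finger transcription factor KLF4 (r = 0.76, rho = 0.78). Without normal ALP replicates 4 and 5 these values of r were 0.74, 0.64 and 0.74. The gene most opposed to DLL4 was MESP1, a transcription factor of early mesoderm (r = -0.81, rho = -0.81).

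Closest to JAG1 were ATP8B1, a phospholipid flippase (r = 0.83, rho = 0.83), ACADL, a mitochondrial acyl-CoA dehydrogenase (r = 0.82, rho = 0.78), and TBCE, a tubulin folding cofactor (r = 0.81, rho = 0.76). The ATP8B1 value was 0.96 within normal and 0.79 within increased ALP, and without normal ALP replicates 3 and 8 the values of r were 0.83, 0.81 and 0.67. LOC612456 was most opposed (r = -0.80, rho = -0.81). Closest to HEY1 were RHPN2 (r = 0.80, rho = 0.86), BTBD3 (r = 0.79, rho = 0.69) and the nuclear protein gene AKIRIN1 (r = 0.78, rho = 0.72), and without normal ALP replicate 5 and increased ALP replicate 4 these were 0.83, 0.55 and 0.60. The sorting nexin gene SNX15 was most opposed (r = -0.79, rho = -0.62). No gene was shared between these 3 sets. Each holds only a few extremes of 10707 genes, and how often such small sets share a gene was not computed.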

How the data were processed

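The deposited values are log2 signals of 43035 probe sets on 18 one-colour arrays, between 2.03 and 15.1. MAS5 is listed in the submitters' processing notes, with no version, and how arrays were normalized to each other is not given in the sources used here. No sequence tables were available, so no sequences are shown. After 111 control and 64 reporter probe sets were set aside, 42860 remained, 29254 with 1 gene symbol, 439 with several and 13167 unlisted, named from the platform annotation. Values were turned to log2(signal + 16). Groups were compared with limma 3.58.1 in R 4.3.3 (lmFit, eBayes with an intensity trend, two-sided, Benjamini-Hochberg, threshold 0.05) on 25716 probe sets, or on all 42860 for members below the filter, and the number of arrays limits the precision. A gene's main probe set has its highest mean. Correlations used 100000 permutations, or exact ones within groups, with Python 3.11.15 and NumPy 2.4.6, adjusted over 21 pairs and, separately, 70 member and list relations. Named were all members, the 3 genes of smallest p of each pathway list, and the 3 most and 1 least correlated genes per tested member. Members and lists were chosen with earlier results of these data known. Fits and correlations were tested on simulated data. Same-numbered tumours of the 2 groups had correlated deviations between -0.16 and 0.27, over 0.1 in 4 of 9 pairs, so the numbers were not taken as pairs. At most 0.100% of probe sets had equal values on 2 arrays, so no array was a duplicate.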

Additional observations from a re-analysis of the deposited data

Results flagged for a closer look

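Each of the 9 probe sets was screened in both groups, 18 sets of 9 values in all, and in 2 of them a tumour's gap to its neighbour was too large a share of the group's range by Dixon's test at the 95% level. Chance flags about 5% of such sets. HEY1 was at 7.57 in normal ALP replicate 5, where the next tumour of that group was at 7.02, a gap of 0.560 of the range. JAG2 was at 5.37 in increased ALP replicate 5, where the next lowest was at 5.61, a gap of 0.551 of the range.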

How the results depend on the processing

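The count of 0 probe sets called by limma, with or without the filter, stayed at 0 under every alternative run, also on leaving out single arrays, and with the tissue number as a replicate block, where the differences of NOTCH2 and NOTCH3 were again 0.31 and 0.13 (adjusted p = 0.801 and 0.811). The count of 0 co-varying pairs was 1 by Spearman and 0 to 1 without single arrays (JAG1 with DLL4, without normal ALP replicate 8), with no cause tested. By rank the count of 1 went from 0 to 2 without single arrays, was 0 with the actin difference removed, and was 2 without increased ALP replicates 3 and 6, where DLL4 with NOTCH1 also passed (rho = 0.81, adjusted p = 0.00672). Of 785 recomputed differences of members and named pathway genes, 0 were called and 22 changed sign. With the actin difference in the fit JAG1 turned to 0.17, CNTN1 to -0.18, MFNG to 0.020, KAT2B to 0.15 and DLL3 to -0.015. With the GAPDH difference DLL3 was -0.0050. With 75th percentile scaling JAG2 was 0.0036 and HES6 0.0098. On leaving out the tumours of highest muscle RNA (normal ALP 1 and increased ALP 4), DLL4 was -0.029 and HES6 0.039, and without increased ALP replicates 3 and 6 CNTN1 was -0.074. The cause was not tested. Without single arrays JAG1 ranged from -0.66 to -0.29, HEY1 from -0.16 to -0.00053, DLL4 from -0.037 to 0.089, JAG2 from -0.049 to 0.011 and HES6 from -0.067 to 0.027. None of 434 recomputed values of 15 correlations changed sign. These 15 had been picked for an unadjusted permutation p under 0.05, which makes a change of sign unlikely. Among the pairs not picked, JAG1 with JAG2 went from r = 0.14 to -0.16 without normal ALP replicates 3 and 8. The Spearman test of JAG1 with DLL4 was repeated under these settings after seeing the data. Signals of the receptors and JAG2 lie near those of reporter controls, which limits what their differences can show.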
